A study of Mus musculus with 8 samples.

Results

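The tricarboxylic acid cycle enzymes described here are 9 genes of the mouse, chosen by symbol from the deposited count table: Cs, Idh3a, Idh3b, Idh3g, Ogdh, Sucla2, Suclg1, Fh1 and Mdh2. They are 9 of the 30495 genes in that table, and all 9 passed the filter on low counts. The measurement is bulk RNA sequencing of the right ventricle from female mice aged 8 weeks, in 4 groups of 2 libraries each. Mice were either wild type (WT) or carried a knockout of Fpr2 (Fpr2-KO), which encodes formyl peptide receptor 2, a receptor of leukocytes and other cells. Control (Ctr) mice of both genotypes lived in normal air for 21 days. SuHx mice of both genotypes were injected with Sugen, a blocker of VEGF receptors, at 20 mg/kg and lived in low oxygen for the same 21 days, a common way to bring about pulmonary hypertension in rodents and so to load the right ventricle. The labels name neither the strain nor the knockout allele, and they do not say whether the libraries of a group came from separate animals.

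As background, the cycle runs in the mitochondrial matrix, where it oxidizes the acetyl groups made from fatty acids, pyruvate, ketones and some amino acids. Its dehydrogenases pass electrons to the respiratory chain as NADH and, through succinate dehydrogenase, as reduced quinone, and the ligase step makes ATP or GTP directly. Heart muscle is dense in mitochondria and makes nearly all of its ATP by this route. Citrate synthase (Cs) condenses acetyl-CoA with oxaloacetate. The NAD-linked isocitrate dehydrogenase is built from the catalytic subunit IDH3A and the regulatory subunits IDH3B and IDH3G. OGDH is the first enzyme of the 2-oxoglutarate dehydrogenase complex, SUCLA2 and SUCLG1 form the ATP-making succinyl-CoA ligase, fumarase (Fh1) hydrates fumarate, and mitochondrial malate dehydrogenase (Mdh2) closes the cycle by making oxaloacetate.

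Libraries held 67965311 to 76292772 counts, of which 24.2% to 28.2% came from the mitochondrial genome. Libraries are named by the number in their column of the table, since only the WT control columns could be tied to single samples. Fpr2 had 12 to 23 counts in the WT libraries and 0 in each Fpr2-KO library, as the titles say, although a genotype field of 3 Fpr2-KO samples names Fpr3, Fpr4 or Fpr5. All 6 ventricular muscle markers were detected in every library. Fpr2-KO SuHx library 2 stood apart: the summed level of 6 atrial markers was 2936 CPM there (counts in each 1000000 counts of the library), with none of the 6 at 0, against 33.9 to 342 CPM in the other libraries, where up to 3 of the 6 were at 0. WT control libraries 1 and 2 came next, at 120 and 342 CPM, and the rest were at 33.9 to 89.9 CPM. Fpr2-KO SuHx library 2 also had the highest scaling factor, at 1.08. The part of these properties in the results was not tested.

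None of the 9 enzyme genes was called in any of the 6 comparisons, which gives 54 tests with edgeR's quasi-likelihood test at a Benjamini-Hochberg adjusted p under 0.05 over 19083 tested genes. DESeq2 called none of them either, and an unadjusted p under 0.05 was reached by Mdh2 for SuHx in WT and by Cs between the genotypes under SuHx. The share of all tested genes called was 20.5% for SuHx against control in WT, 10.7% for the same in Fpr2-KO, 2.6% for Fpr2-KO against WT in controls, 0% for Fpr2-KO against WT under SuHx, 0% for the interaction of genotype and SuHx, and 29.6% for SuHx averaged over the genotypes. An unadjusted p under 0.05 was reached, in the same order, by 34.3%, 27.4%, 20.8%, 3.48%, 12.7% and 41.5% of them. Across the 8 libraries the highest CPM of a cycle enzyme gene was 1.23 to 1.33 times its lowest, with a median of 1.27, whereas the median over all tested genes was 2.18. The median coefficient of variation across libraries was 8.03% for the 9 genes and 26.8% for all tested genes, which include many genes of low counts.

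Levels of different genes were compared per length, as CPM scaled by TMM (a factor that sets the bulk of genes level between libraries) and divided by the kilobases of a gene's merged exons in GENCODE M21, averaged over the 8 libraries. Ogdh had the highest level at 289 ± 28.4 CPM per kilobase (SD, n = 8), followed by Mdh2 at 275 ± 20.7. The ranges of these genes overlapped, and Ogdh was above Mdh2 in 6 of 8 libraries. Idh3b followed at 196 ± 15.7 CPM per kilobase and Cs at 195 ± 15.9, with each above the other in 4 libraries. Idh3g at 167 ± 13.7, Sucla2 at 143 ± 10.3, Fh1 at 137 ± 9.69 and Idh3a at 112 ± 10.6 CPM per kilobase came next, each with a range that overlapped that of the gene above it. Suclg1 was the lowest at 69.8 ± 5.02 CPM per kilobase, below every other cycle enzyme gene without overlap. This order depends on the length used: per kilobase of the longest coding transcript, Mdh2 came first at 674, Ogdh fell to place 4 at 381, and Fh1 was last at 176 below Suclg1 at 212. Values from here on are TMM-scaled CPM not divided by length, which compare libraries but not genes, unless a length is named.

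**Figure D1:**
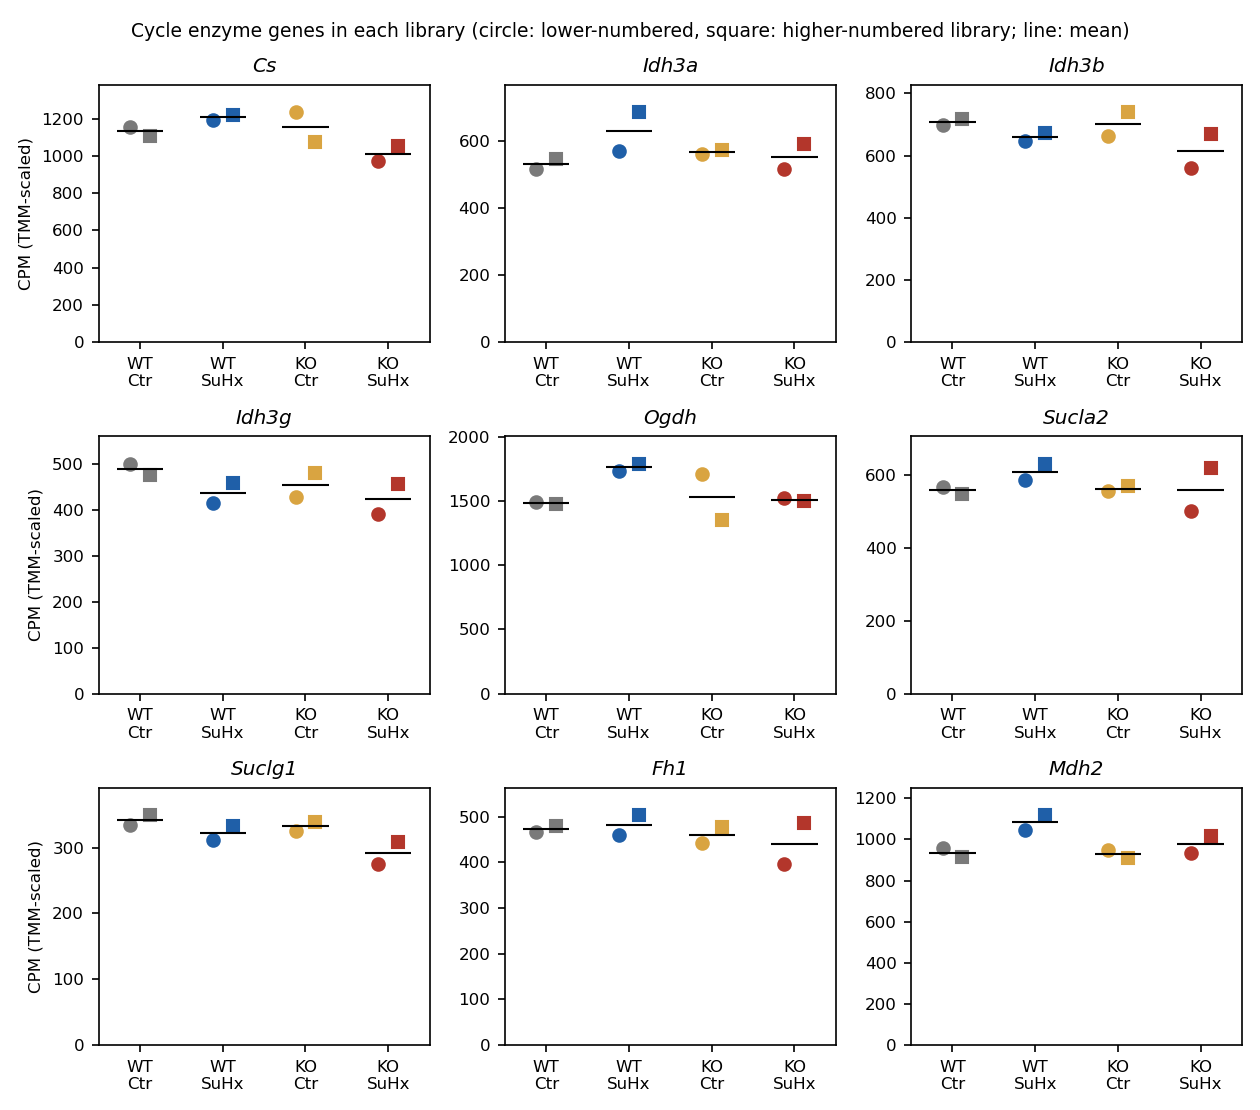
TMM-scaled CPM of the 9 cycle enzyme genes in each of the 8 libraries, 1 panel per gene, with an axis from 0. Points are libraries and lines are means of 2 libraries; the 2 points of a group lie close together for most genes, and Ogdh in Fpr2-KO controls, at 1714 and 1352 CPM, is the widest pair.

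Cs (ENSMUSG00000005683, mm10 chromosome 10, 128337734 to 128362479, plus strand) opens the cycle. It was at 1157 and 1109 CPM in the WT control libraries, 1194 and 1220.5 CPM in WT SuHx, 1236 and 1075 CPM in Fpr2-KO control, and 970.5 and 1052 CPM in Fpr2-KO SuHx. On these TMM-scaled values the SuHx libraries lay above the controls in WT and below them in Fpr2-KO, without overlap in either genotype. By total counts alone the Fpr2-KO groups overlapped. Cs had 71629 of 69079862 counts in Fpr2-KO control library 3, a smaller share than the 77639 of 71985936 in Fpr2-KO SuHx library 3. The estimated log2 fold change of SuHx was 0.09 ± 0.10 (SE) in WT and -0.19 ± 0.10 in Fpr2-KO (edgeR adjusted p = 0.562 and 0.252). Under SuHx, Cs was lower in Fpr2-KO than in WT by an estimate of -0.26 ± 0.10 with a 95% interval of -0.48 to -0.03 (unadjusted p = 0.0309, edgeR adjusted p = 1). The interaction, which is the test of the opposite directions, was -0.28 ± 0.14 (edgeR adjusted p = 0.45), and 5.28% of all tested genes moved apart in this non-overlapping way. Reads of Cs could be shared with Csl, 91.9% identical over 1522 bases, but Csl had at most 14 counts in a library.

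The upstream sequences of Cs and Ogdh are shown because these genes had the largest estimated differences between the genotypes under SuHx, and because no base of either window lies in an annotated exon. Each run is the 250 bases before the RefSeq gene start, 5′ to 3′ on the gene's strand, in build GRCm38.p6. Capitals mark a match to the cyclic AMP response element TGACGTCA.
Cs, chr10:128337477-128337726, plus strand: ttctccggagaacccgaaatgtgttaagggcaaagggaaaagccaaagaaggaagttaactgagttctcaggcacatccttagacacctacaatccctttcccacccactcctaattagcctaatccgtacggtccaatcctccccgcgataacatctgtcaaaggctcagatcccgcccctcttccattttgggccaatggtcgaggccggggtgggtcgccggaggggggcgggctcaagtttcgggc
Ogdh, chr11:6291347-6291596, plus strand: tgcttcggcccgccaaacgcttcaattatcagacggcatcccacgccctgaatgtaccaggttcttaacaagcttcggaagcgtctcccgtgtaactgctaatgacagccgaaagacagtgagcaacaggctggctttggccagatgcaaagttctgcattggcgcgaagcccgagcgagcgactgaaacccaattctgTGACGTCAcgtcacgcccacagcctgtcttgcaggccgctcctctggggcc

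In Ogdh the element lies 51 to 44 bases before the gene start, and the Cs window holds none. Of the 9 genes, 8 had an entry in the RefSeq promoter table and Idh3a had none. On either strand the element TGACGTCA was in 2 of these 8 windows, those of Ogdh and Mdh2, and in 1.62% of 27025 mouse promoters of the same length. Of 9 motifs searched, the NRF1 motif was in 1 window, that of Sucla2, against 3.86% of all promoters. The GC box GGGCGG was in 4 of 8 windows against 32.9%, and the estrogen-related receptor motif TNAAGGTCA was in 0 of 8 against 1.14%. The hypoxia response element NACGTG was in 2 of 8 windows, those of Idh3g and Ogdh, against 16.5%, and is not marked above. The ETS motif CCGGAAG was in 1 window, that of Idh3g, against 7.05%, and the YY1, E-box and DR1 motifs were in 0. The 8 windows had a median GC content of 56.2% and 16.5 CpG dinucleotides, compared with 52% and 6 over all promoters. Of the window of Mdh2 169 bases lie in GENCODE exons, and its match lies past the gene start given for it in the deposited table, so it is not upstream of that start. Of the Sucla2 window 154 bases are exonic. The whole window, chr14:73552536-73552785, lies past the gene start of 73525319 given in the deposited table, so its NRF1 match is not upstream of that start. These matches describe the letters of the windows and show no binding.

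For the subunit genes of NAD-linked isocitrate dehydrogenase, the estimates of SuHx in WT were above 0 for Idh3a and below 0 for Idh3b and Idh3g, whereas in Fpr2-KO all 3 were below 0, and none was called. Idh3a (ENSMUSG00000032279, mm10 chromosome 9, 54586334 to 54604661, plus strand), the catalytic subunit, was at 516 and 545 CPM in WT control, 571 and 686 CPM in WT SuHx, 562 and 572 CPM in Fpr2-KO control, and 517 and 589.8 CPM in Fpr2-KO SuHx. Its SuHx libraries were above the controls in WT alone, and the spread within WT SuHx was as wide as the step from control (log2 fold change 0.24 ± 0.11, interval -0.02 to 0.50, edgeR adjusted p = 0.168). In Fpr2-KO the estimate was -0.03 ± 0.11. Without WT SuHx library 3 the WT estimate was 0.11, and without WT SuHx library 1 it was 0.38.

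Idh3b (ENSMUSG00000027406, mm10 chromosome 2, 130279309 to 130284547, minus strand), a regulatory subunit, was at 698 and 717 CPM in WT control, 646 and 672 CPM in WT SuHx, 662 and 740.1 CPM in Fpr2-KO control, and 562 and 668 CPM in Fpr2-KO SuHx. The WT libraries did not overlap between the treatments and the Fpr2-KO libraries did, with estimates of -0.10 ± 0.11 and -0.19 ± 0.11 (edgeR adjusted p = 0.553 and 0.304). Its locus shares 5 exonic bases with Nop56 on the opposite strand.

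Idh3g (ENSMUSG00000002010, mm10 chromosome X, 73778963 to 73786897, minus strand), the other regulatory subunit, was at 500.0 and 475 CPM in WT control, 414 and 459 CPM in WT SuHx, 427 and 479.6 CPM in Fpr2-KO control, and 389.8 and 457 CPM in Fpr2-KO SuHx. The WT SuHx libraries were again below the controls, at -0.16 ± 0.11 (edgeR adjusted p = 0.362), and the Fpr2-KO groups overlapped. Per kilobase of merged exons, Idh3a made up 20.7% to 27.0% of the summed level of the 3 subunit genes, Idh3b 39.1% to 42.7% and Idh3g 33.7% to 37.7% over the 8 libraries. The Idh3a share was 21.3% ± 0.767 in WT control and 25.9% ± 1.57 in WT SuHx (SD, n = 2), then 23.1% ± 1.2 in Fpr2-KO control and 24.5% ± 0.456 in Fpr2-KO SuHx.

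Ogdh (ENSMUSG00000020456, mm10 chromosome 11, 6291633 to 6356642, plus strand), whose protein decarboxylates 2-oxoglutarate, was at 1496 and 1476 CPM in WT control, 1739 and 1794 CPM in WT SuHx, 1714 and 1352 CPM in Fpr2-KO control, and 1526 and 1499.8 CPM in Fpr2-KO SuHx. The WT groups lay well apart next to the spread within each, while the Fpr2-KO controls spanned most of the range of the gene. The WT estimate was 0.25 ± 0.12 (interval -0.01 to 0.51, edgeR adjusted p = 0.166), with 1 spread estimated from all 4 groups, and the Fpr2-KO estimate was -0.02 ± 0.12. In Fpr2-KO the estimate was 0.16 without Fpr2-KO control library 2 and -0.18 without Fpr2-KO control library 3, so its direction rested on which control library was kept. Under SuHx, Ogdh was lower in Fpr2-KO without overlap, at -0.22 ± 0.12 (edgeR adjusted p = 1).

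Sucla2 (ENSMUSG00000022110, mm10 chromosome 14, 73525319 to 73595783, plus strand), the ATP-specific beta subunit of succinyl-CoA ligase, was at 565 and 548 CPM in WT control, 584 and 630.1 CPM in WT SuHx, 555 and 567 CPM in Fpr2-KO control, and 499.6 and 618 CPM in Fpr2-KO SuHx. The WT groups did not overlap and the Fpr2-KO SuHx libraries lay on either side of their controls, with estimates of 0.13 ± 0.11 and -0.01 ± 0.11 (edgeR adjusted p = 0.479 and 0.979). Suclg1 (ENSMUSG00000052738, mm10 chromosome 6, 73248382 to 73276911, plus strand), the alpha subunit shared by both forms of the ligase, was at 335 and 349 CPM in WT control, 312 and 333 CPM in WT SuHx, 325 and 339 CPM in Fpr2-KO control, and 276 and 309 CPM in Fpr2-KO SuHx. It was below the controls without overlap in both genotypes, by estimates of -0.09 ± 0.09 in WT and -0.18 ± 0.09 in Fpr2-KO (edgeR adjusted p = 0.568 and 0.25). Per kilobase of merged exons the beta subunit gene was higher than that of its alpha partner in every library, at 125 to 158 CPM per kilobase for Sucla2 against 59.7 to 75.7 for Suclg1. The size of this gap depends on the length used. Per kilobase of the longest coding transcript the means were closer, at 256 for Sucla2 and 212 for Suclg1.

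Fh1 (ENSMUSG00000026526, mm10 chromosome 1, 175600374 to 175625635, minus strand), the gene of fumarase, was at 468 and 479 CPM in WT control, 459.9 and 504 CPM in WT SuHx, 442 and 478 CPM in Fpr2-KO control, and 396 and 486 CPM in Fpr2-KO SuHx. The groups overlapped in both genotypes, and the estimates of 0.03 ± 0.12 and -0.06 ± 0.12 were small next to their errors (edgeR adjusted p = 0.902 and 0.783). In WT the interval of -0.24 to 0.29 is what these libraries allow. Fh1 overlaps Kmo on the opposite strand, without shared exonic bases.

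Mdh2 (ENSMUSG00000019179, mm10 chromosome 5, 135778480 to 135790391, plus strand), the matrix malate dehydrogenase, was at 956 and 915 CPM in WT control, 1048 and 1119 CPM in WT SuHx, 951 and 908 CPM in Fpr2-KO control, and 936 and 1017 CPM in Fpr2-KO SuHx. Its WT SuHx libraries were above all other libraries, and the Fpr2-KO groups overlapped. The estimate was 0.21 ± 0.09 in WT, with an interval of 0.005 to 0.42 that left out 0 before adjustment (unadjusted p = 0.046, edgeR adjusted p = 0.137), and 0.07 ± 0.09 in Fpr2-KO (edgeR adjusted p = 0.667). Processed pseudogenes up to 87.0% identical to parts of its transcript, such as Gm12384, could take or give reads.

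The first comparison asks how the cycle enzymes of the WT ventricle stood after SuHx. In WT, Cs, Idh3a, Ogdh, Sucla2 and Mdh2 were higher in both SuHx libraries than in both controls, Idh3b, Idh3g and Suclg1 were lower in both, and Fh1 overlapped. That is 5 of 9 higher and 3 of 9 lower without overlap, where 32.5% of all tested genes were higher and 30.5% lower in the same sense. The median log2 fold change of the 9 genes was 0.09, beside 0.00 for all tested genes, and the median size of the change was 0.13 beside 0.44. The 95% interval that reached farthest was that of Ogdh, to a 1.43-fold difference, so larger changes of any of the 9 lay outside the intervals. Summed ventricular muscle markers (6 of 6 detected) were 26459 to 27455 CPM of the total in WT control and 32919 to 33353 CPM in WT SuHx, and their part in the estimates was not tested. The markers went both ways in WT: 4 of 6 were higher without overlap, led by Myh6 with 12479 and 11860 CPM in control and 16889 and 18327 CPM in SuHx, while Tnnt2 and Actn2 were lower without overlap. In bulk tissue, fewer cells of a type and less RNA per cell cannot be told apart.

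In Fpr2-KO the estimates of SuHx leaned the other way: 8 of 9 were below 0 and Mdh2 was above it. On TMM-scaled values Cs and Suclg1 were lower without overlap, which is 2 of 9 where 28.1% of all tested genes were lower and 30.9% higher in that sense. The median was -0.06 beside 0.02 for all tested genes, and the widest interval reached a 1.35-fold difference, for Idh3b. Without Fpr2-KO SuHx library 2, the one with the highest atrial marker sum, the median was 0.01. The estimates of Idh3a, Idh3g, Sucla2 and Fh1 then turned positive, at 0.05, 0.01, 0.13 and 0.07. With library size alone as the scaling, the median of all genes in this comparison moved from 0.02 to 0.12, the share of called genes that were higher moved from 46.2% to 62.7%, and the median of the 9 genes became 0.03. The median of the 9 was thus below that of all genes under either scaling. Summed ventricular markers were 26718 and 35002 CPM of the total in the Fpr2-KO controls and 28825 to 29932 CPM in Fpr2-KO SuHx. The gap between the Fpr2-KO controls came with Myh6, at 18886 and 11558 CPM.

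**Figure D2:**
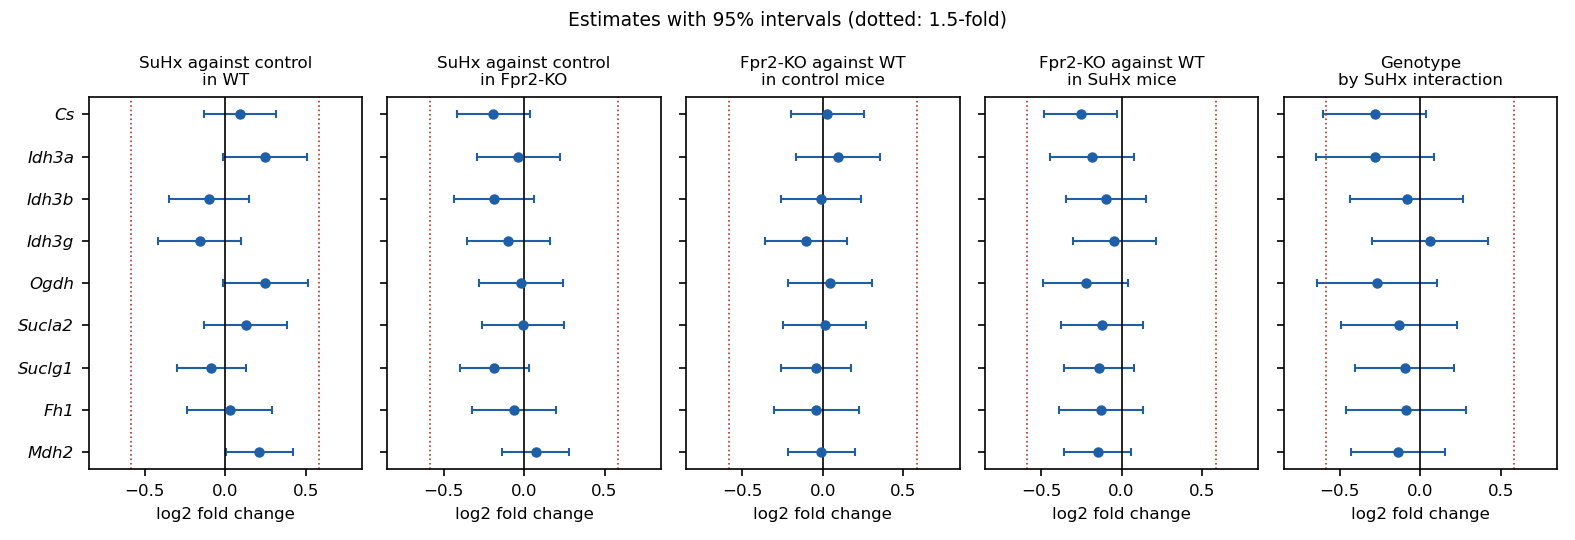
Estimated log2 fold changes of the 9 cycle enzyme genes with 95% intervals in 5 comparisons from the edgeR fit of all 8 libraries; dotted lines mark a 1.5-fold difference. Most intervals include 0; those of Mdh2 in WT (0.005 to 0.42) and Cs between genotypes under SuHx (-0.48 to -0.03) do not, and neither gene passed the adjustment over all genes.

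Between the genotypes in control mice the 9 genes were closest to each other. Estimates ran from -0.11 for Idh3g to 0.10 for Idh3a, with a median of -0.01 and a median size of 0.04, beside 0.31 for all tested genes. Idh3a was the single gene whose libraries did not overlap, higher in Fpr2-KO, where 23.5% of all tested genes were higher and 24.3% lower in that sense. No interval reached beyond a 1.29-fold difference.

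Under SuHx all 9 estimates were below 0 in Fpr2-KO relative to WT, from -0.04 for Idh3g to -0.26 for Cs, with a median of -0.14 beside -0.01 for all tested genes. The lean was not particular to these genes. Below 0 were also 8 of 8 other cycle subunit genes (median -0.10) and 19 of 21 nuclear respiratory chain subunit genes (median -0.12). The same held for 18 of 18 beta-oxidation genes (median -0.25) and 6 of 6 ventricular muscle markers (median -0.13). Cs, Ogdh, Suclg1 and Mdh2 were lower in Fpr2-KO without overlap, 4 of 9 where 19.5% of all tested genes were lower and 17.3% higher in that sense. No gene was called among all 19083 with edgeR, 3.48% had an unadjusted p under 0.05, and DESeq2 called 17 genes. The estimates share their libraries and are not 9 separate observations. Without Fpr2-KO SuHx library 2 the median was -0.06, and the estimates of Idh3b, Idh3g, Sucla2 and Fh1 were above 0, at 0.023, 0.067, 0.026 and 0.014. The interaction of genotype and SuHx was below 0 for 8 of 9 genes, with a median of -0.13 and -0.28 for Cs and Idh3a, -0.27 for Ogdh and 0.06 for Idh3g. It was also below 0 for 6 of 8 other cycle subunit genes, 19 of 21 respiratory chain genes and 16 of 18 beta-oxidation genes. edgeR called no gene for the interaction, with 12.7% of all genes at an unadjusted p under 0.05, and DESeq2 called 512 genes, none of them among the 9.

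With SuHx set against control over both genotypes, the estimates lay between -0.15 for Idh3b and 0.14 for Mdh2 (SE 0.06 to 0.08), and no interval reached beyond a 1.25-fold difference. None of the 9 genes was without overlap between the 4 SuHx and the 4 control libraries, where 29.3% of all tested genes were. Mdh2 had the lowest adjusted p of the 9, at 0.131 in edgeR. It was called at 0.19 with library size alone, and Ogdh was called at 0.21 without Fpr2-KO control library 2.

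Within both SuHx groups the libraries differed in how the 9 genes stood together. The mean deviation of the 9 genes from their own averages, on the log2 scale, was -0.17 in Fpr2-KO SuHx library 2, 0.13 in WT SuHx library 3 and within 0.02 of 0 in the other libraries. Fpr2-KO SuHx library 2 held the lowest CPM of 6 of the 9 genes, and WT SuHx library 3 held the highest CPM of 5. The partner libraries of both were near 0, at 0.01 for Fpr2-KO SuHx library 3 and 0.02 for WT SuHx library 1. In all, the 9 genes took 0.628% to 0.723% of the counts of a library, with 0.654% ± 0.0203 in WT control, 0.708% ± 0.0217 in WT SuHx, 0.658% ± 0.0424 in Fpr2-KO control and 0.670% ± 0.0224 in Fpr2-KO SuHx (SD, n = 2). By this share Fpr2-KO SuHx library 2, at 0.655%, was above WT control library 1 at 0.639% and Fpr2-KO control library 3 at 0.628%. Its low standing in TMM-scaled CPM thus rested in part on its scaling factor of 1.08. WT SuHx library 3 was also the highest by share, at 0.723%.

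**Figure D3:**
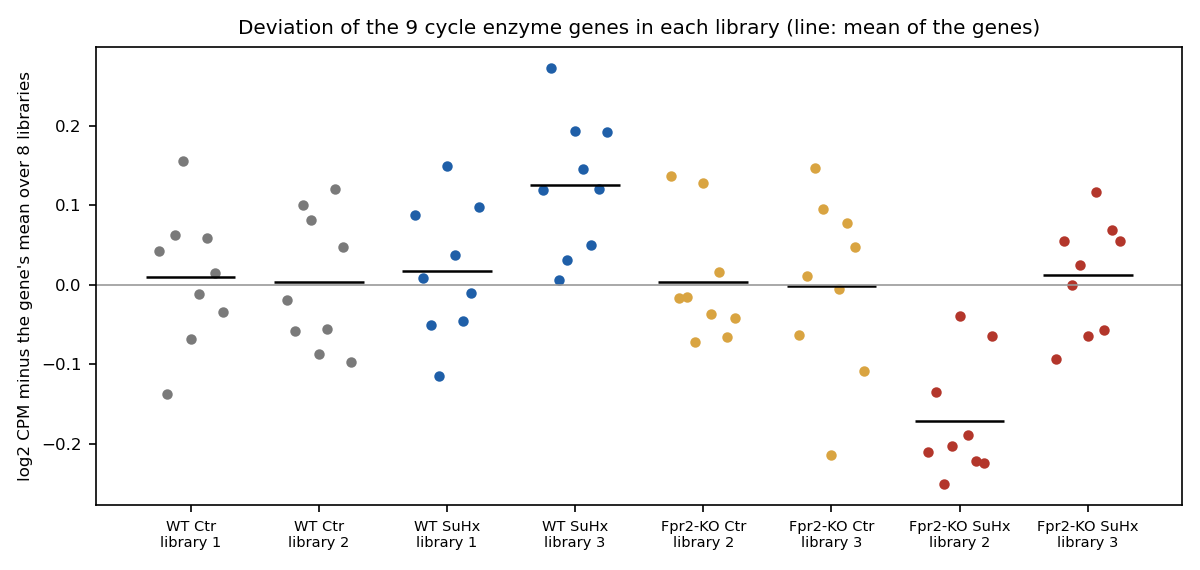
Deviation of TMM-scaled log2 CPM from the mean over 8 libraries for each of the 9 cycle enzyme genes, by library; lines are means of the 9 genes. All 9 points lie below 0 in Fpr2-KO SuHx library 2 (mean -0.17) and above 0 in WT SuHx library 3 (mean 0.13).

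The genes whose profile over the 8 libraries was most like the mean profile of the 9 were mitochondrial. Among 5960 genes with a mean of at least 20 CPM, the nearest by root mean square log2 difference were Atp5g3 at 0.015, Ndufs3 at 0.032, Lrpprc at 0.036, Atp5a1 at 0.038, Mtres1 at 0.039 and Cox5a at 0.044. Atp5g3 and Atp5a1 encode subunits of ATP synthase, Ndufs3 a core subunit of complex I and Cox5a a subunit of cytochrome c oxidase, while Lrpprc and Mtres1 act on mitochondrial RNA. The 9 genes themselves lay at 0.045 for Fh1 to 0.122 for Ogdh from their mean. The median over the compared genes was 0.213, and 13.9% of them were at least as near as Ogdh, so such nearness was common and the order is given as a description.

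Of the other subunit genes of the cycle 8 were examined, which set the flat profile of the 9 in context. After SuHx in WT, Dlst rose and Idh2 fell, 1 higher and 1 lower of 8, where 10.9% of all tested genes were called higher and 9.63% lower. Idh2, the NADP-linked mitochondrial isocitrate dehydrogenase, was at 3036 and 2577 CPM in WT control, 1622 and 1478 CPM in WT SuHx, 2109 and 2382 CPM in Fpr2-KO control, and 1452 and 1497 CPM in Fpr2-KO SuHx. All 4 SuHx libraries were below all 4 controls, and Idh2 fell by 0.86 ± 0.11 in WT and by 0.61 ± 0.11 in Fpr2-KO on the log2 scale (edgeR adjusted p = 0.00197 and 0.0158). The Fpr2-KO call was lost without Fpr2-KO control library 3, without Fpr2-KO SuHx library 2 and without Fpr2-KO SuHx library 3.

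Dlst, the second enzyme of the 2-oxoglutarate dehydrogenase complex, was at 400.0 and 414 CPM in WT control, 517 and 589.8 CPM in WT SuHx, 462 and 435 CPM in Fpr2-KO control, and 465 and 481 CPM in Fpr2-KO SuHx. It rose by 0.44 ± 0.10 in WT (edgeR adjusted p = 0.0146), a call lost without WT control library 1 or without WT SuHx library 3, and its estimate in Fpr2-KO was 0.08 ± 0.10. Sdha, the flavoprotein of succinate dehydrogenase, fell in Fpr2-KO from 1568 and 1458 to 1096 and 1249 CPM, with 2 of 8 genes called lower and 0 higher, where 5.75% of all genes were called lower and 4.93% higher. Its log2 fold change was -0.37 ± 0.10 (edgeR adjusted p = 0.0479), close to the threshold, and the call was lost when any library of Fpr2-KO or of WT SuHx was left out. Over both genotypes Sdha (-0.29 ± 0.07), Suclg2, the GTP-specific beta subunit of succinyl-CoA ligase (-0.20 ± 0.06), and Idh2 (-0.73 ± 0.08) fell and Dlst (0.26 ± 0.07) rose, with 1 higher and 3 lower of 8 where 15.5% and 14.1% of all genes were called. Dld, Sdhb, Sdhc and Sdhd were called in no comparison.

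Ratios between genes of 1 step do not depend on scaling between libraries. Idh2 counts per count of the 3 Idh3 genes were 1.77 and 1.48 in WT control, 0.995 and 0.813 in WT SuHx, 1.28 and 1.33 in Fpr2-KO control, and 0.989 and 0.873 in Fpr2-KO SuHx, so every SuHx library was below every control. Counts of Ogdh per count of Ogdhl, a paralog better known from brain, were 6.35 and 9.03 in WT control, 14.4 and 15.7 in WT SuHx, 10.9 and 10.9 in Fpr2-KO control, and 15.5 and 17.8 in Fpr2-KO SuHx. Ogdhl fell in WT by 0.77 ± 0.18 on the log2 scale (edgeR adjusted p = 0.0212), while Ogdh was not called, and neither ratio was tested.

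The share of Sucla2 among Sucla2 and Suclg2 counts was 80.1% ± 1.76 in the 4 SuHx libraries and 77.1% ± 1.13 in the 4 controls (SD). The difference of 2.94 percentage points gave p = 0.0571 in an exact two-sided permutation test over 70 splits, of which 0.0286 is the smallest possible, so it did not pass. The share was 76.2% ± 0.357 and 80.4% ± 0.244 in WT control and SuHx (n = 2) and 78.0% ± 0.700 and 79.7% ± 2.97 in Fpr2-KO. In WT the groups did not overlap, while Fpr2-KO SuHx library 2, at 77.6%, lay between the Fpr2-KO controls at 77.5% and 78.5%. Within 1 genotype the smallest p of such a test is 0.333.

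**Figure D4:**
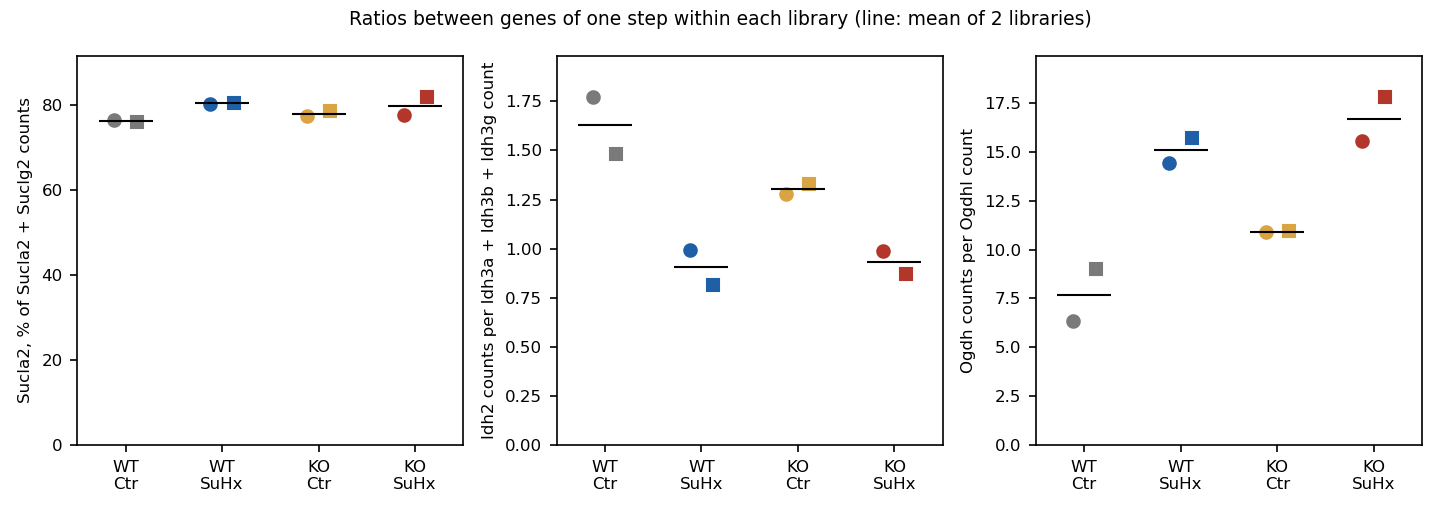
Ratios within each library: the share of Sucla2 in Sucla2 plus Suclg2 counts in percent, Idh2 counts per summed Idh3a, Idh3b and Idh3g count, and Ogdh counts per Ogdhl count. Points are libraries and lines are means of 2; Idh2 per Idh3 count is 0.813 to 0.995 in the SuHx libraries and 1.28 to 1.77 in the controls.

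Genes that feed and drain the cycle moved in both directions. Of 18 genes for the entry and exit of intermediates, 4 rose and 1 fell in WT after SuHx (10.9% and 9.63% of all genes). Pdhb, a subunit of the pyruvate dehydrogenase that delivers acetyl-CoA, rose by 0.54 ± 0.09 in WT and was called in every alternative run. Slc25a13, a mitochondrial aspartate and glutamate carrier, rose by 0.63 ± 0.13, and Got1, the cytosolic aspartate aminotransferase, fell by 0.62 ± 0.14 (edgeR adjusted p = 0.00425, 0.0105 and 0.0183). In Fpr2-KO 2 rose and 2 fell (4.93% and 5.75% of all genes), led by Slc25a13 at 0.64 ± 0.13, Me1, cytosolic malic enzyme, at -0.61 ± 0.12, and Got1 at -0.55 ± 0.14 (edgeR adjusted p = 0.0198, 0.0208 and 0.0459). These Fpr2-KO calls numbered 0 without Fpr2-KO control library 3, Fpr2-KO SuHx library 2 or Fpr2-KO SuHx library 3. The WT calls fell to 1 higher and 1 lower without WT SuHx library 3, and to 2 higher and 0 lower without WT SuHx library 1 or WT control library 1.

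Of 4 assembly factors of succinate dehydrogenase, 2 rose in WT and 1 in Fpr2-KO, where 10.9% and 4.93% of all tested genes were called higher. Sdhaf4, which aids assembly of the flavoprotein with its partner subunit, was at 4.37 and 4.68 CPM in WT control and 11.3 and 9.68 CPM in WT SuHx, then 5.18 and 5.04 CPM in Fpr2-KO control and 10.6 and 12.1 CPM in Fpr2-KO SuHx. It rose by 1.21 ± 0.17 and 1.15 ± 0.17 (edgeR adjusted p = 0.00256 and 0.00782), and the Fpr2-KO call was lost without Fpr2-KO control library 3 or Fpr2-KO SuHx library 3. Sdhaf2, which helps to attach the flavin, rose by 0.41 ± 0.10 in WT (edgeR adjusted p = 0.0206), a call lost without WT control library 1 or either WT SuHx library. Among 6 cytosolic or tissue-restricted counterparts, of which 4 passed the filter, Ogdhl fell in WT and Idh1, the cytosolic isocitrate dehydrogenase, rose in Fpr2-KO by 0.74 ± 0.18 (edgeR adjusted p = 0.0379), a call lost when any Fpr2-KO library was left out. These are 1 lower and 1 higher of 4, where 9.63% of all tested genes were called lower in WT and 4.93% higher in Fpr2-KO.

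Transcripts of fatty acid beta-oxidation, the route by which fatty acids give acetyl groups to the cycle, were the next list. Of 18 beta-oxidation genes, 14 fell in WT after SuHx and 15 in Fpr2-KO, with 0 higher in either, where 9.63% and 5.75% of all tested genes were called lower. The median log2 fold changes of the list were -0.58 and -0.77, beside 0.09 and -0.06 for the 9 cycle enzyme genes. In WT the largest were Eci2, an enoyl-CoA isomerase (-0.95 ± 0.13), Acadl, long-chain acyl-CoA dehydrogenase (-0.78 ± 0.10), and Hadha, the alpha subunit of the trifunctional protein (-0.77 ± 0.12), and in Fpr2-KO they were Hadha (-1.15 ± 0.12), Decr1, 2,4-dienoyl-CoA reductase (-1.07 ± 0.13), and Acaa2, a thiolase (-0.97 ± 0.15). The number that fell was 5 and 6 in WT without WT SuHx library 1 or 3 and 9 without WT control library 1, and in Fpr2-KO it was 8 without Fpr2-KO control library 3 or without Fpr2-KO SuHx library 2. Of 21 nuclear respiratory chain subunit genes, 2 rose in WT, Cycs at 0.62 ± 0.12 and Cyc1 at 0.36 ± 0.10, which encode cytochrome c and cytochrome c1, a share near the 10.9% of all tested genes called higher, and 0 were called in Fpr2-KO by edgeR or DESeq2, with medians of 0.04 and -0.03. The median ratio of the highest to the lowest library was 2.1 for the beta-oxidation genes, 1.23 for the respiratory chain genes and 1.27 for the cycle enzyme genes. Summed markers of other cells differed with SuHx too, in each genotype without overlap: the 6 macrophage markers summed to 62.9 to 109 CPM of the total in controls and 122 to 149 CPM in SuHx, and the 6 pericyte and smooth muscle markers to 655 to 789.5 CPM and 984 to 1188 CPM, with no marker at 0. In each genotype 5 of 6 macrophage markers were higher without overlap, and Csf1r overlapped. Most of the pericyte and smooth muscle sum was Rgs5 and Acta2. Rgs5, Acta2 and Kcnj8 were higher without overlap in both genotypes, while Pdgfrb, Myh11 and Tagln overlapped in both. The 6 endothelial markers summed to 506 to 554 CPM of the total in controls and 635 to 843 CPM in SuHx. Cdh5, Tie1 and Emcn were higher without overlap in both genotypes. Kdr was higher in WT and lower in Fpr2-KO, and Vwf was lower in WT, each without overlap. The 4 skeletal muscle markers in the table summed to 1237 to 1371 CPM of the total in controls and 1834 to 2129 CPM in SuHx. Nearly all of that sum was Ckm, while Tnnt3, Actn3 and Mylpf were each at most 0.584 TMM-scaled CPM in any library. That sum therefore describes Ckm and not the list. The 6 fibroblast markers summed to 942 to 1121 CPM of the total in WT control and 848 to 865 CPM in WT SuHx. In Fpr2-KO the sum was 1002 to 1019 CPM in control and 1140 to 1198 CPM in SuHx. The sum was thus lower after SuHx in WT and higher in Fpr2-KO, but the single markers did not part by genotype. In both genotypes Col1a1, Col1a2 and Lum were higher and Dcn and Pdgfra lower, without overlap. Dcn, the highest of the list, was at 832 and 897 TMM-scaled CPM in WT control and 499 and 523 in WT SuHx. In Fpr2-KO it was at 810 and 823 in control and 723 and 667 in SuHx. Adipocyte markers, of which 2 to 5 were at 0 outside Fpr2-KO SuHx library 2, were 564 to 634 CPM of the total in WT control and 342 to 393 CPM in WT SuHx, and overlapped in Fpr2-KO. Nearly all of that sum was Fabp4, at 663 and 556 TMM-scaled CPM in WT control and 395 and 351 in WT SuHx. Adipoq, Plin1 and Cidec were each at most 0.763 TMM-scaled CPM in any library, and Lep and Retn did not pass the filter. That sum therefore describes Fabp4 and not the list. Lymphocyte markers were at most 6.12 CPM in any library. Their sums were 0.544 to 0.714 CPM in WT control and 2.99 to 6.12 CPM in WT SuHx. In WT 4 of 6 were called higher, where 10.9% of all tested genes were. Their sums overlapped in Fpr2-KO. Red cell markers ranged from 23.9 to 622 CPM with overlap in WT. In Fpr2-KO they were at 49.2 to 342.8 CPM in control and 343.8 to 360 CPM in SuHx. The part of these cell types in the results was not tested.

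**Figure D5:**
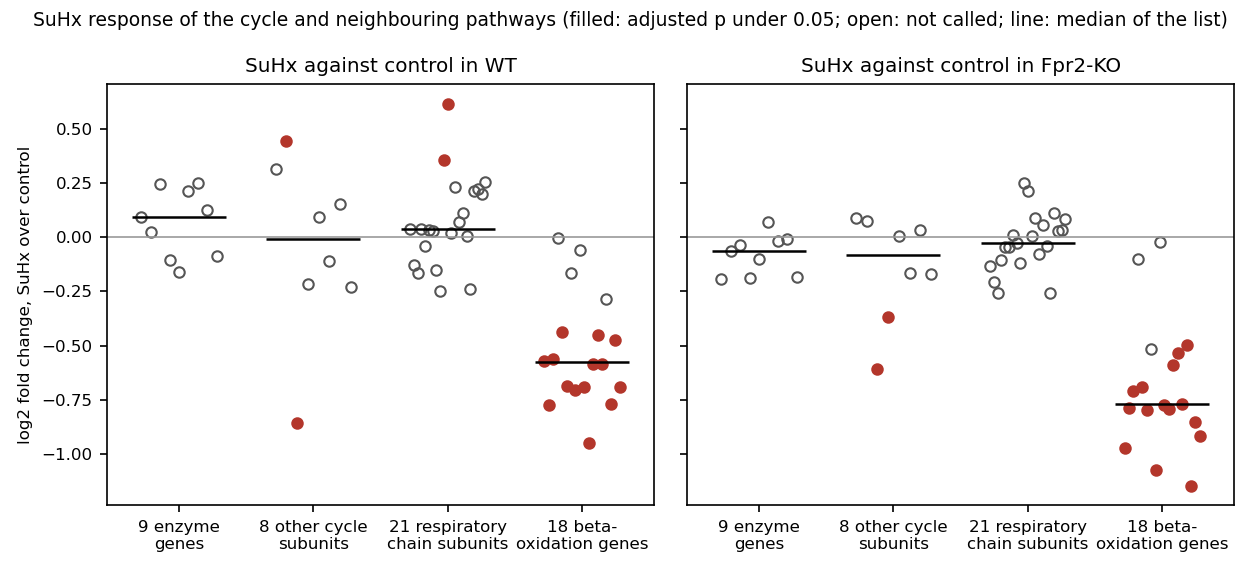
Log2 fold changes of SuHx against control in WT and in Fpr2-KO for the 9 cycle enzyme genes, 8 other cycle subunit genes, 21 respiratory chain subunit genes and 18 beta-oxidation genes; each point is a gene, filled where called, and lines are medians. The cycle enzyme genes lie within 0.25 of 0 with none filled, while beta-oxidation medians are -0.58 and -0.77.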

How the data were processed

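The counts are whole numbers per gene in the deposited table, taken as the authors made them and carrying no normalization. A further 8 columns hold FPKM; since most columns could be tied to a group but not to a single sample, 1 measure was kept, the FPKM were left out with the comparisons planned on them, and gene lengths came from GENCODE M21. Per the labels' protocols, poly(A) RNA was made into libraries with dUTP in the second strand and sequenced in pairs. The submitters' processing notes name cutadapt 1.9, HISAT2 2.2.1, StringTie 2.1.6, DESeq2, edgeR and build mm10; neither their roles, nor the annotation release, nor the use of strand in counting is given in the sources used here. Reads of genes that overlap on opposite strands may therefore be shared.

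Samples were grouped by title. Of the 8 count columns, 6 carry a group and a number that does not match a title, so they served as unnumbered replicates of their group. Nothing says that samples came from separate animals, so the spread behind each p-value may be technical. Libraries of 1 group were not copies of each other (chi-square per degree of freedom of 25.3 to 84.0).

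Tests used edgeR 4.0.16: filterByExpr by group left 19083 genes and removed 11412, TMM scaled the libraries, and 1 robust quasi-likelihood fit of all 8 libraries (4 residual degrees of freedom, common biological coefficient of variation 25.1%) gave 6 two-sided comparisons, adjusted by Benjamini and Hochberg over all tested genes and called under 0.05. Standard errors and 95% intervals follow from the F statistic and its total degrees of freedom. The steps were tested on simulated data, in which every gene had the same spread, smaller than the common one above. That test checks the steps and not their error rates in these libraries. Alternatives were DESeq2 1.42.0, other scalings and filters, a replicate block, and leaving out libraries. With this many counts per gene, the number of libraries limits the precision. Near copies came from blastn 2.17.0 (at least 85% identity over 200 bases), and promoter sequences from RefSeq (GRCm38.p6).

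The members, the gene lists and the tests were chosen with earlier results of these data known. All 9 members and 8 other cycle subunit genes are named throughout, and 1 further gene of that list is not reported here; from each further list the called genes with the largest changes are named, at most 3 per comparison, and 6 genes of like profile.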

Additional observations from a re-analysis of the deposited data

Results flagged for a closer look

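On TMM-scaled values, both SuHx libraries stood above both controls for Cs in WT and below both in Fpr2-KO. By total counts alone the Fpr2-KO groups overlapped. The difference between the responses was -0.28 on the log2 scale (SE 0.14), from 0.09 in WT to -0.19 in Fpr2-KO, and its own test in edgeR did not pass (adjusted p = 0.45). Without Fpr2-KO control library 2 the Fpr2-KO estimate of Cs was -0.089 and the difference -0.19, and without Fpr2-KO control library 3 they were -0.29 and -0.38. Dlst was higher in both Fpr2-KO than in both WT control libraries and lower under SuHx, at 0.14 and -0.23, a difference of -0.37 ± 0.14 (edgeR adjusted p = 0.33). Dlat, a subunit of the pyruvate dehydrogenase complex, did the same at 0.18 and -0.14, a difference of -0.31 ± 0.13 (edgeR adjusted p = 0.381). Opposite, non-overlapping SuHx responses like that of Cs were seen in 5.28% of all tested genes. Groups of 2 libraries are too small for a check of single outlying libraries within a group.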

How the results depend on the processing

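The 9 genes were re-estimated under 16 other settings: of 846 estimates 782 kept their direction and side of the threshold, 62 changed sign, none of them called (main estimates of at most 0.13 in size), and 2 were newly called, both averaged over genotypes. Those raised the count of called genes from 0 to 1, for Mdh2 with library size alone and for Ogdh in 1 of the settings that leave out a library (0 to 1 called over these). Direction is therefore not settled for Fh1, Sucla2, Idh3a, Idh3g and Ogdh in Fpr2-KO; the causes were not tested.

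With library size alone the log2 estimates that changed sign were, for SuHx in Fpr2-KO, Idh3a 0.060, Ogdh 0.075, Sucla2 0.087 and Fh1 0.032, for SuHx averaged, Fh1 0.030, for Fpr2-KO against WT under SuHx, Idh3g 0.048, and for the interaction, Idh3b 0.0084 and Fh1 0.0049. Without a filter they were Mdh2 0.00038 between genotypes in controls and Sucla2 0.0021 for SuHx in Fpr2-KO. With Fpr2-KO SuHx library 2 and WT control library 1 both left out they were, for SuHx in Fpr2-KO, Idh3a 0.053, Idh3g 0.0062, Sucla2 0.13 and Fh1 0.073, for SuHx averaged, Fh1 0.043, between genotypes in controls, Mdh2 0.033, between genotypes under SuHx, Idh3b 0.022, Idh3g 0.067, Sucla2 0.026 and Fh1 0.014, and for the interaction, Idh3b 0.044, Suclg1 0.0043 and Fh1 0.060.

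Whether the column numbers pair the samples was not settled. Correlations of same-numbered deviations ran from -0.35 to 0.11. With 2 libraries a group the deviations within a group mirror each other, so these correlations cannot decide it. With a replicate block 0 of the 9 genes were called, Fh1 in WT became -0.067, and between genotypes in controls Idh3a became -0.020 and Sucla2 -0.044; all genes called were 1164 for SuHx in Fpr2-KO, 9 between genotypes in controls and 1 under SuHx.

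Leaving out 1 library at a time gave, for SuHx in WT, Fh1 -0.037 to 0.096; in Fpr2-KO, Ogdh -0.18 to 0.16, Sucla2 -0.15 to 0.13, Idh3a -0.12 to 0.053, Idh3g -0.20 to 0.0064 and Fh1 -0.20 to 0.073; averaged, Fh1 -0.086 to 0.052, Cs -0.095 to 0.0038 and Sucla2 -0.011 to 0.13. Between genotypes in controls it gave Mdh2 -0.030 to 0.027, Idh3b -0.093 to 0.083, Suclg1 -0.071 to 0.0057, Cs -0.058 to 0.13, Ogdh -0.12 to 0.21, Fh1 -0.093 to 0.033 and Sucla2 -0.00047 to 0.045. Under SuHx it gave Idh3g -0.14 to 0.067, Idh3b -0.21 to 0.023, Sucla2 -0.26 to 0.026 and Fh1 -0.26 to 0.014, and for the interaction Idh3g -0.046 to 0.16, Idh3b -0.20 to 0.025, Sucla2 -0.28 to 0.0032 and Fh1 -0.23 to 0.042.

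Counts over all genes moved more. SuHx in WT called 3919 genes, 1328 to 4289 with 1 library left out and 2233 with the pair left out. SuHx in Fpr2-KO called 2038, 290 to 3051 with 1 out and 937 with the pair out; averaged, 5646 and 3498 to 5844. Fpr2-KO against WT in controls called 497, 0 to 2370 with 1 out, 43 with the pair out, 1787 with DESeq2 and 0 in the 4 libraries alone. Under SuHx it called 0, 0 to 5 with 1 out, 3 with the pair out, 17 with DESeq2 and 2 in the 4 libraries alone. The interaction called 0, 0 to 756 with 1 out, 2 with the pair out, 512 with DESeq2 and 12 without a filter. The alternatives planned on the authors' FPKM (limma, and the Sucla2 share) were not run.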
